A study of Bos taurus with 34 samples.

Results

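The antiviral effector genes that interferon switches on were examined in the liver of cattle that differ in the SLICK1 allele of the prolactin receptor gene PRLR. The effectors were taken as 50 gene symbols, matched to the symbol given for each gene in the authors' deposited table of SLICK against FREE liver. Of the 50 symbols, 44 were found there, and because GBP4 and IFITM3 each name 2 genes, they gave 46 genes of the 14161 compared. IFIT1, GBP2, BST2, HELZ2, RNF213 and TRIM56 were the 6 symbols not found in this way. The deposited gene annotation gives the names IFIT1 and GBP2 to 2 genes that the authors' deposited table lists under LOC100139670 and LOC781710, and their values are given with their families. The other 4 symbols are not analysed here.

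The series holds 34 samples of liver RNA, all labelled as Senepol, in 2 experiments. The TruSeq experiment, named for a kit that selects mRNA, has 18 samples, from female offspring of Blanco and Lone Ranger, both slick bulls. SLICK daughters carry 1 copy of the allele (5 samples from each bull), and FREE daughters carry 0 copies (7 samples from Lone Ranger and 1 from Blanco). The SMARTer experiment, named for a total RNA kit, has 16 samples, 5 from animals with 1 copy (S1) and 11 from animals with 2 copies (S2). The labels used here give no age or treatment, and all TruSeq daughters, FREE included, have a slick sire. The bulls' daughters are unequally divided between the genotypes, so allele and sire cannot be fully told apart. The sources used here do not say whether the authors' model included sire.

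The library columns of the tables are headed by animal numbers, which no sample label repeats. Columns that no label ties to a sample were not used here. Whether these genes were high in a few libraries or graded over all of them is a question for those columns and was not analysed here, in either experiment. The values below are those of the authors' deposited table, where a negative log2 fold change (also log2 change or log2 value) is read, from the name of the table, as lower in SLICK. Single libraries offered no check of that direction. The liver label was compared with its defining markers: all 8 hepatocyte markers were listed in the authors' deposited table, at average levels from 8.09 to 15.87 log2 CPM (CPM is the count scaled to library size).

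Interferons are secreted proteins that cells release when they sense a virus or foreign nucleic acid. They bind receptors that act through the kinases JAK1 and TYK2 on STAT proteins and IRF9, which together turn on a large set of genes at a shared DNA element. The effectors among them block viruses at entry, in RNA copying, in translation and at budding, and some feed back on the signal. Hepatocytes and resident immune cells of the liver both express them, and in whole liver RNA fewer cells of a type and less RNA per cell cannot be told apart.

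In the authors' deposited table all 46 effector genes had negative log2 fold changes, as did 51.8% of all genes. The change was large for ISG15, HERC6, MX2, MX1 and ISG20, whose levels were between 3.67 and 6.75 times lower in SLICK. It was small for SAMHD1, LGALS3BP and TRIM25. The median of the 46 log2 fold changes in the authors' deposited table was -0.96, which compares with -0.01 over all 14161 genes, and the values ran from -2.76 to -0.08.

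With the authors' deposited table read at an adjusted p of 0.05, 5 of the 46 genes fell and 0 rose, where 0.410% of all genes fell. They were HERC6, ISG20, OAS1Z, ADAR and the GBP4 gene ENSBTAG00000014529. A further 22 effectors had an adjusted p between 0.05 and 0.10 in the authors' deposited table, which makes 27 lower at 0.10, against 1.94% of all genes. At an unadjusted p under 0.05, 43 of the 46 were lower and 0 higher in the authors' deposited table, against 8.79% lower and 7.22% higher of all genes. The authors' deposited table had 35 of them lower at an unadjusted p under 0.01, against 3.82% of all genes. A log2 fold change of -1 or less was found for 23 effectors in the authors' deposited table, against 1.55% of all genes. Ranked by p, the first 100 genes of the authors' deposited table included 7 effectors and the first 500 included 32. The members were chosen with earlier results of these data known, so these counts describe them and are no independent evidence of a direction.

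**Figure D1:**
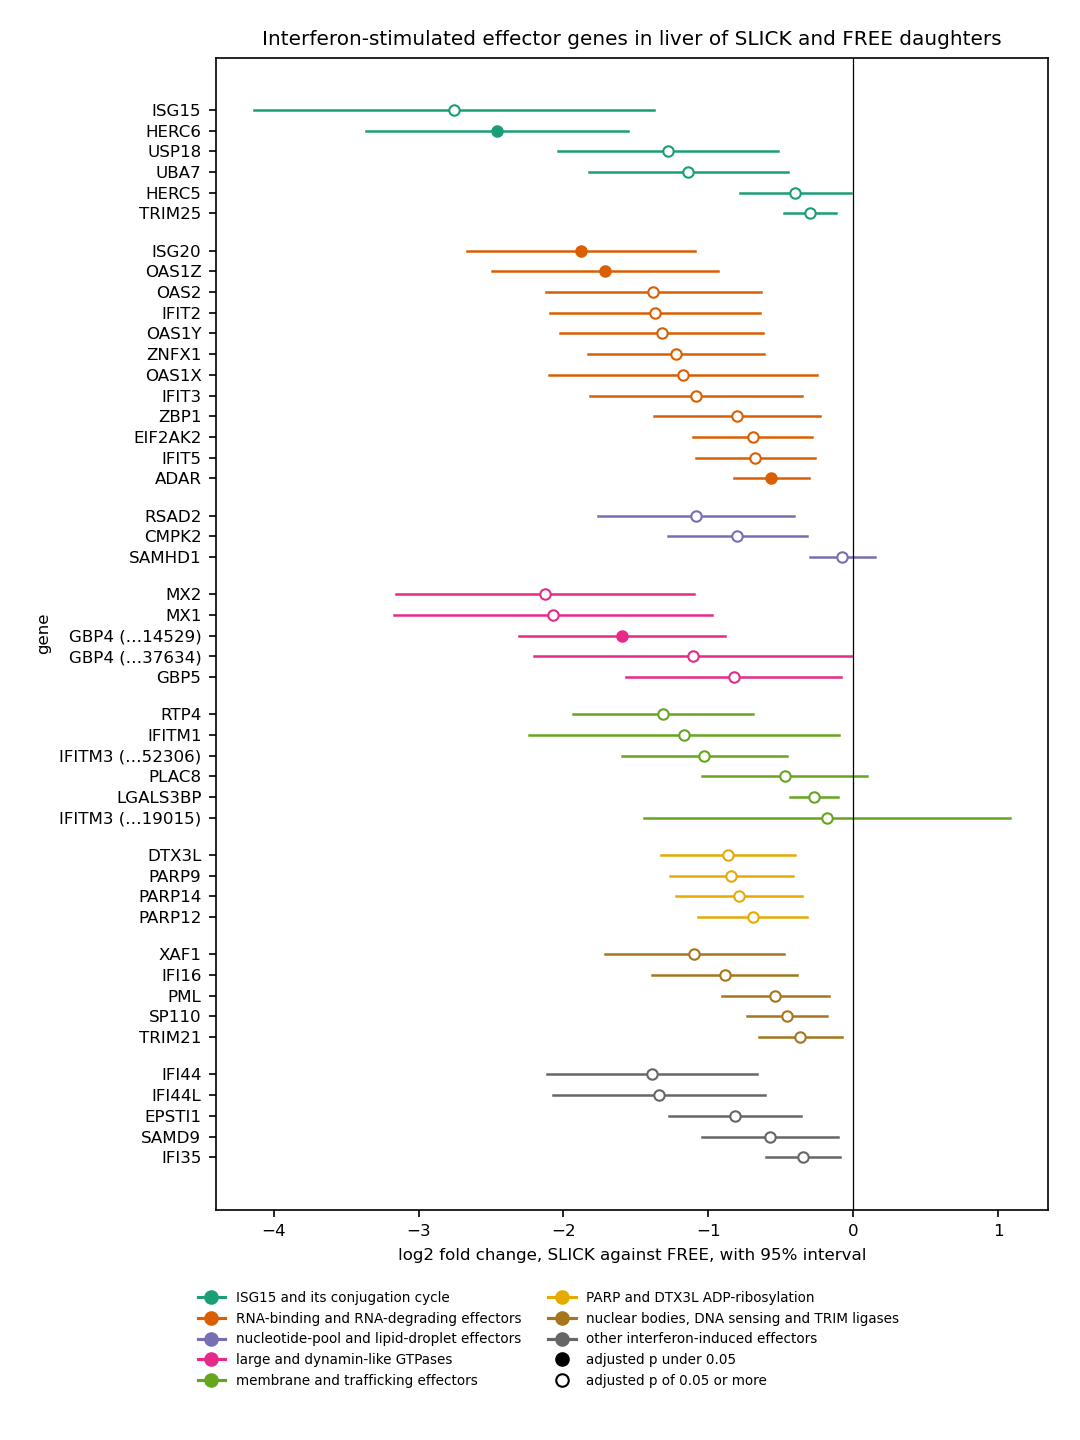
Log2 fold change of SLICK against FREE (x axis, with 95% interval) for each of the 46 effector genes (y axis), coloured by role. Filled points have an adjusted p under 0.05 in the authors' deposited table. All points lie left of 0, from -2.76 for ISG15 to -0.08 for SAMHD1, and 3 intervals cross 0.

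The plot of log2 fold changes by role gives each value with a 95% interval, computed from the deposited F statistic. A standard error (SE) was taken as the size of the log2 fold change divided by the square root of F. By this interval 43 of the 46 genes lay wholly below 0. For ISG15, HERC6, MX2 and ISG20 the whole interval lay below -1, and for 33 genes the interval included -1. The volcano plot of all genes sets the same values against the rest of the liver transcriptome.

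**Figure D2:**
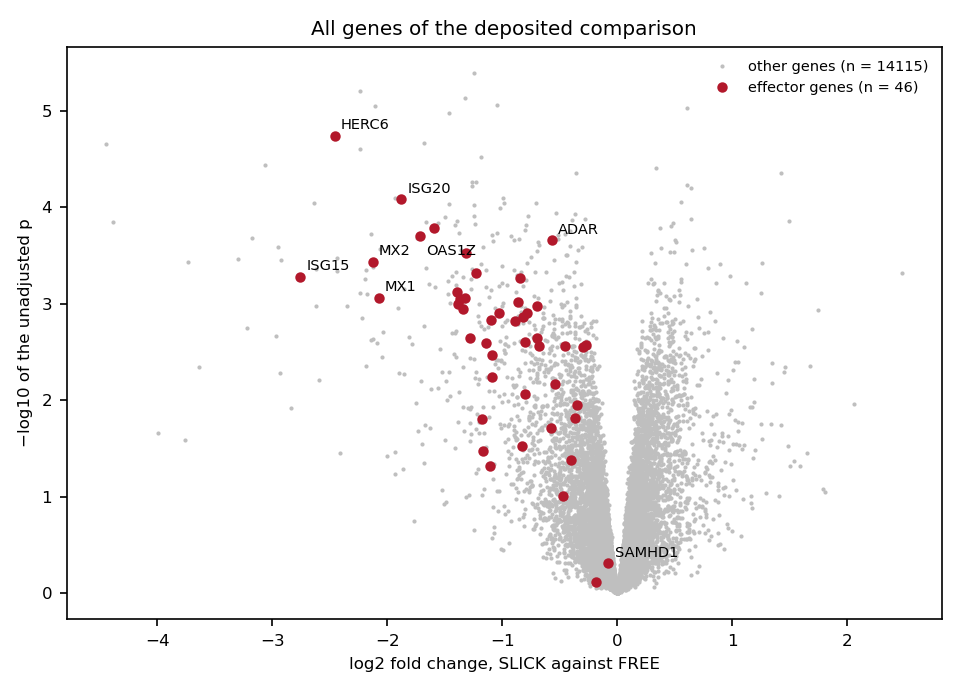
Unadjusted p on a −log10 scale (y axis) against log2 fold change of SLICK against FREE (x axis) for the 14161 genes of the authors' deposited table, with the 46 effectors in red. All effectors lie left of 0, and genes outside the set reach lower values, down to -4.44.

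ISG15 is a small ubiquitin-like protein that is attached to other proteins, and free ISG15 also acts as a signal. All 6 genes of its cycle had negative values, and their median in the authors' deposited table was -1.21. Of the 6, 1 passed, where 0.410% of all genes fell at an adjusted p of 0.05. HERC6, a HECT-type ligase of the family that attaches ISG15, fell by 2.46 log2 units (SE 0.43) in the authors' deposited table, or 5.50-fold (95% interval 2.94 to 10.3). With an unadjusted p of 1.81e-05 (adjusted 0.0319) it ranked 8 of 14161 by p in the authors' deposited table. HERC6 lies on chromosome 6 of ARS-UCD1.2 from 36309915 to 36367045 on the minus strand, at an average level of 5.28 log2 CPM in the authors' deposited table.

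ISG15 itself had the lowest log2 fold change of the set, -2.76 (SE 0.66), in the authors' deposited table. It did not pass (unadjusted p 5.23e-04, adjusted p 0.0630), and its error was the largest of the set. ISG15 lies on chromosome 16 from 51464069 to 51465107. USP18, the protease that removes ISG15 and also damps the interferon receptor, had a log2 change of -1.28 in the authors' deposited table. For UBA7, the enzyme that activates ISG15, the value in the authors' deposited table was -1.14, and for the ligase TRIM25, which also acts on the RNA sensor RIG-I, it was -0.30.

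HERC5, which is the main ISG15 ligase in human cells, had a log2 change of only -0.40 (95% interval -0.79 to -0.02) in the authors' deposited table. HERC5 and HERC6 are neighbours within 36257293 to 36367045 of chromosome 6 and were measured at like average levels of 4.91 and 5.28 log2 CPM in the authors' deposited table. Their intervals do not overlap, and the difference between them was not tested.

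Genes that bind or degrade RNA formed the most numerous role, and 3 of 12 fell, against 0.410% of all genes. The median log2 fold change was -1.20 in the authors' deposited table, with all 12 negative. ISG20, an exonuclease that degrades viral RNA, fell by 1.88 log2 units (SE 0.38) in the authors' deposited table (unadjusted p 8.29e-05, adjusted p 0.0484). It had the lowest average level of the effectors, 1.45 log2 CPM in the authors' deposited table, and lies on chromosome 21 from 19607426 to 19625071.

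Oligoadenylate synthetases make a short nucleotide messenger on double-stranded RNA that switches on RNase L. Cattle have several OAS1 genes. OAS1Z fell by 1.71 log2 units (SE 0.37) in the authors' deposited table (unadjusted p 2.00e-04, adjusted p 0.0486). Its neighbours OAS2, OAS1Y and OAS1X had log2 values of -1.38, -1.32 and -1.18 in the authors' deposited table and did not pass (adjusted p between 0.0738 and 0.194). The 4 genes lie side by side on chromosome 17 from 61338202 to 61402638. All 4 intervals overlap, and the differences among these genes, which share the same libraries, were not tested. Reads shared among the OAS1 copies could be dropped or given to another copy in the authors' counting, which makes each single value uncertain.

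ADAR, which edits adenosine to inosine in double-stranded RNA and keeps a cell's own RNA from being sensed, showed a smaller but more precise fall. It fell by 0.57 log2 units (SE 0.12) in the authors' deposited table (unadjusted p 2.20e-04, adjusted p 0.0486). ADAR lies on chromosome 3 from 15968147 to 15994363. EIF2AK2, the kinase PKR that stops translation on double-stranded RNA, had a log2 change of -0.70 in the authors' deposited table. The helicase-like ZNFX1 had -1.22 and ZBP1, a sensor of Z-form nucleic acid, had -0.80 in the authors' deposited table, and neither passed.

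IFIT proteins bind the ends of foreign RNA and block its translation. IFIT2, IFIT3 and IFIT5 had log2 values of -1.37, -1.09 and -0.68 in the authors' deposited table (adjusted p between 0.0749 and 0.128). The gene that the annotation names IFIT1, listed as LOC100139670 (ENSBTAG00000007881), had -2.12 (SE 0.50) in the authors' deposited table (unadjusted p 4.19e-04, adjusted p 0.0599). IFIT2, IFIT3 and IFIT5 lie on chromosome 26 from 11028206 to 11091761, and LOC100139670 lies between IFIT3 and IFIT5. All of IFIT2, IFIT3 and LOC100139670 and the start of IFIT5 lie within the span of LIPA, a lysosomal lipase gene on the opposite strand. LIPA had a log2 change of -0.19 (adjusted p 0.381) in the authors' deposited table. The sources used here do not say whether the TruSeq libraries were counted by strand.

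Large GTPases of the dynamin kind coat viral particles and membranes. MX2 had a log2 change of -2.13 (SE 0.49) in the authors' deposited table (unadjusted p 3.67e-04, adjusted p 0.0570). Its neighbour MX1, the classic influenza restriction factor, had -2.07 (SE 0.52, adjusted p 0.0738) in the authors' deposited table. The pair lies on chromosome 1 from 141621165 to 141706496. MX1 was expressed more strongly than MX2 for its length, at 5.68 against 2.11 log2 CPM per kilobase on average in the authors' deposited table, while their log2 fold changes were nearly alike.

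Guanylate-binding proteins attack the membranes of vacuoles that hold microbes and are best known as targets of interferon gamma. GBP4 (ENSBTAG00000014529) fell by 1.59 log2 units (SE 0.34) in the authors' deposited table (unadjusted p 1.62e-04, adjusted p 0.0486). The other gene listed as GBP4 (ENSBTAG00000037634) had -1.11 with a wide interval from -2.21 to -0.01 in the authors' deposited table, at 2.04 log2 CPM on average. GBP5 had -0.83, and LOC781710, which the annotation names GBP2, had -0.54 (adjusted p 0.215) in the authors' deposited table. GBP5 and both GBP4 genes lie on chromosome 3 from 54094947 to 54507578. Reads of such related genes could be shared, so single values are uncertain. Their sequences were not compared here.

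RSAD2, or viperin, makes a chain-terminating nucleotide at the surface of lipid droplets and the endoplasmic reticulum, and CMPK2, encoded beside it, is a kinase that can supply its substrate. RSAD2 had a log2 change of -1.08 (SE 0.32, unadjusted p 0.00340, adjusted p 0.109) in the authors' deposited table. For CMPK2 it was -0.80 (SE 0.23, unadjusted p 0.00248, adjusted p 0.0982) in the authors' deposited table. Of these and SAMHD1, 0 passed the authors' F test and 2 were lower at an unadjusted p under 0.05, against 8.79% of all genes. The pair lies on chromosome 11 from 90038994 to 90083512. SAMHD1 destroys the nucleotides that retroviruses need, and its value was the nearest to 0 of the set. Its log2 fold change was -0.08 (95% interval -0.30 to 0.15, unadjusted p 0.486, adjusted p 0.806) in the authors' deposited table, so a fall of more than 0.30 lay outside the interval.

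Membrane effectors act at virus entry, budding or protein traffic. Of these 6 genes 0 passed the authors' F test, and 4 were lower at an unadjusted p under 0.05, against 8.79% of all genes. RTP4, a chaperone of membrane receptors, came closest with a log2 fold change of -1.31 (SE 0.30, unadjusted p 2.96e-04, adjusted p 0.0521) in the authors' deposited table. It lies on chromosome 1 from 79911983 to 79916543. IFITM proteins stiffen endosomal membranes against viral fusion. One IFITM3 gene (ENSBTAG00000052306) had -1.03 (SE 0.27, unadjusted p 0.00125, adjusted p 0.0854) in the authors' deposited table, and the neighbouring IFITM1 had -1.17 (SE 0.51, adjusted p 0.274). The other IFITM3 gene (ENSBTAG00000019015) had -0.18 with an interval from -1.44 to 1.08 in the authors' deposited table (unadjusted p 0.766, adjusted p 0.927). The intervals of the IFITM genes overlap, and the differences among these genes were not tested. The IFITM genes lie on chromosome 29 from 50929934 to 51001621.

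PLAC8 had a log2 change of -0.47 with an interval from -1.04 to 0.10 in the authors' deposited table (unadjusted p 0.0978, adjusted p 0.431). LGALS3BP, a secreted glycoprotein, was the effector with the highest average level, 8.51 log2 CPM in the authors' deposited table. Its log2 fold change there was small, -0.27 (SE 0.08, unadjusted p 0.00267, adjusted p 0.101).

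The 4 ADP-ribosylation genes had nearly equal values, and 0 passed the authors' F test. All 4 were lower at an unadjusted p under 0.05, against 8.79% of all genes. PARP9 (-0.84), DTX3L (-0.87), PARP14 (-0.79) and PARP12 (-0.69) differed by less than 1 SE, and the SE ran from 0.18 to 0.22 in the authors' deposited table. PARP9 and its partner DTX3L, a ubiquitin ligase, had the smallest p of the role, 5.44e-04 and 9.49e-04 (adjusted p 0.0642 and 0.0764), in the authors' deposited table. PARP9, DTX3L and PARP14 lie together on chromosome 1 from 66958506 to 67058498. PARP9 and DTX3L overlap by 420 bases on opposite strands. HSPBAP1, which overlaps PARP14 on the opposite strand, had a log2 change of 0.05 in the authors' deposited table.

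Among nuclear effectors, TRIM ligases and XAF1, 0 of 5 passed the authors' F test. All 5 were lower at an unadjusted p under 0.05, against 8.79% of all genes. XAF1, a promoter of cell death, and IFI16, a nuclear DNA sensor, had log2 values of -1.10 and -0.89 in the authors' deposited table. Their SE were 0.29 and 0.24, their unadjusted p were 0.00148 and 0.00152, and the adjusted p was 0.0876 for both in the authors' deposited table. PML, which builds nuclear bodies, had -0.54, and SP110, another nuclear body protein, had -0.46 in the authors' deposited table. TRIM21, the cytosolic antibody receptor, had -0.37 in the authors' deposited table.

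Of the remaining 5 genes 0 passed the authors' F test. All 5 were lower at an unadjusted p under 0.05, against 8.79% of all genes. IFI44 and IFI44L, neighbours on chromosome 3 from 66029139 to 66071372, had log2 values of -1.39 and -1.34 in the authors' deposited table. Their SE were both 0.35, with unadjusted p of 7.57e-04 and 0.00113 and adjusted p of 0.0698 and 0.0800 in the authors' deposited table. EPSTI1 had -0.82, SAMD9, which arrests translation, had -0.57, and IFI35 had -0.35 in the authors' deposited table.

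The error of these estimates was large for genes of their level. The SE of an effector had a median of 0.29, against 0.12 over all genes. Each effector was set beside the other genes whose average level lay within 0.5 log2 CPM of its own. In 45 of 46 effectors the SE was above the median SE of those genes, by a median ratio of 3.03. The ratio was highest for ISG15 (7.54), IFITM1 (6.05), the IFITM3 gene ENSBTAG00000019015 (5.67), MX1 (5.58) and MX2 (5.43). For TRIM25 it was 1.04, and for LGALS3BP, the exception, 0.71. An SE of this kind holds the spread between samples within the groups, as the authors' model saw it, together with counting error, and it does not show which samples are spread apart.

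Effectors with log2 fold changes farther from 0 had larger errors, a relation that is partly built in because the SE was computed from the log2 fold change. Across the 46 genes, which share the same libraries, the log2 fold change and its SE had a Spearman rho of -0.78 and a Pearson r of -0.72. Across all genes the size of the log2 fold change and the SE had a rho of 0.53. The ratio of change to SE, which is the square root of F, had a median of 3.62 and ran from 0.30 for the IFITM3 gene ENSBTAG00000019015 to 5.70 for HERC6. Between the log2 fold change and the average level of the 46 genes the rho was -0.02 (Pearson r -0.03).

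**Figure D3:**
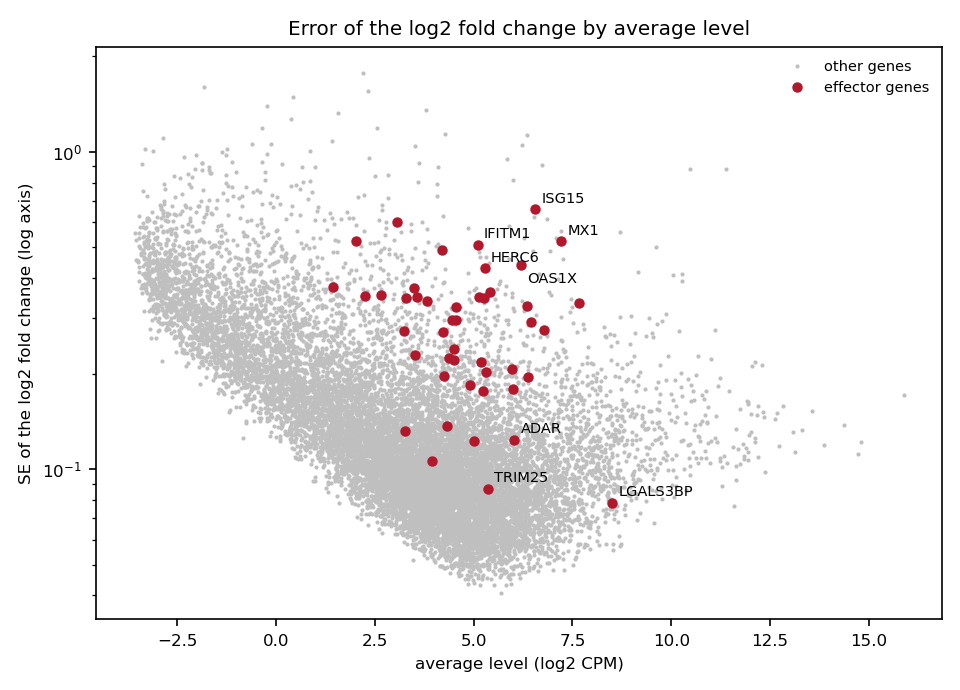
SE of the log2 fold change (y axis, log scale) against the average level in log2 CPM (x axis) for all genes of the authors' deposited table, with the 46 effectors in red. Effectors lie above most genes of like level, and ISG15 (0.66) and MX1 (0.52) stand highest among those named. TRIM25 (0.09) lies near the median of genes of its level, and LGALS3BP (0.08), the exception, lies below it.

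Per length of gene, ISG15 had the highest average level of the effectors, 7.30 log2 CPM per kilobase, followed by LGALS3BP (6.97), OAS1Y (6.90) and MX1 (5.68) in the authors' deposited table. At the other end were GBP4 (ENSBTAG00000037634, -0.21), ISG20 (0.76) and GBP5 (1.16) on the same scale in the authors' deposited table. Both ends of the range held genes with log2 fold changes below -1.

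Upstream of the effectors, 0 of 16 receptor and JAK-STAT genes passed by the F test of the authors' deposited table. At an unadjusted p under 0.05, 5 (31.3%) of these genes were lower and 0 higher, against 8.79% lower and 7.22% higher of all genes. Their median in the authors' deposited table was -0.07 log2 units. The receptor chains IFNAR1, IFNAR2, IFNGR1, IFNGR2, IFNLR1 and IL10RB had values from -0.07 to 0.07 in the authors' deposited table, and their intervals stayed within -0.26 and 0.24. JAK1, TYK2 and STAT2 had values of 0.04, -0.03 and -0.15 in the authors' deposited table. IRF9, which binds DNA with the STAT proteins, had -0.46 (adjusted p 0.169) in the authors' deposited table. The feedback inhibitor SOCS1 had the smallest p of these in the authors' deposited table (adjusted p 0.0649), with an interval of the log2 fold change from -1.51 to -0.49 at an average of -1.97 log2 CPM.

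Of 16 measured sensors and interferon regulatory factors, 0 passed the authors' F test. At an unadjusted p under 0.05, 7 (43.8%) were lower and 0 higher, against 8.79% lower and 7.22% higher of all genes. The RNA sensor IFIH1 and the factor IRF7 had the smallest p, with log2 values of -0.89 and -1.32 and adjusted p of 0.0599 and 0.0761 in the authors' deposited table. IRF3, which is present before any stimulus, had -0.28, and TBK1, the kinase that activates it, had 0.01 in the authors' deposited table. None of the 9 interferon ligand symbols was listed there, so the level of interferon itself is not analysed here. Antigen presentation genes, also interferon targets, had a median of -0.24 over 13 genes in the authors' deposited table, with 0 passing the authors' F test. At an unadjusted p under 0.05, 7 of them (53.8%) were lower and 0 higher, against the same shares of all genes. PSMB8 and PSME1 had the smallest p of these, with log2 values of -0.43 and -0.24 and adjusted p of 0.115 and 0.138 in the authors' deposited table.

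**Figure D4:**
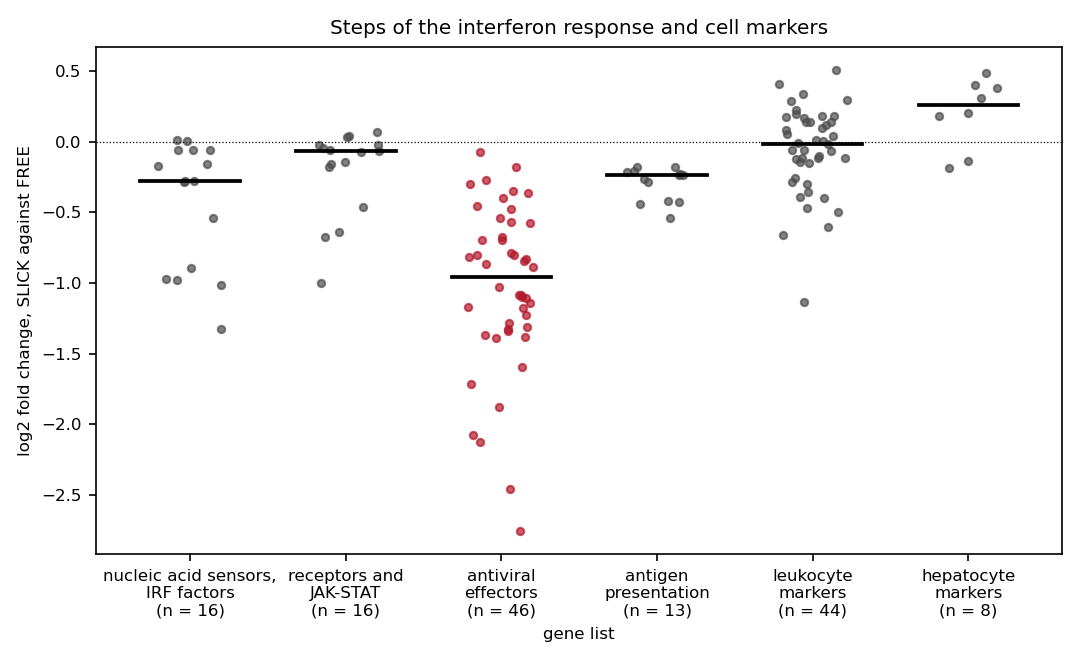
Log2 fold change of SLICK against FREE (y axis) for genes at successive steps of the interferon response and for cell markers (x axis), each point a gene and each bar the median. Medians are -0.28 for sensors and regulatory factors, -0.07 for receptors and JAK-STAT genes, -0.96 for effectors, -0.24 for antigen presentation, -0.01 for leukocyte markers and 0.26 for hepatocyte markers.

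Markers of other cell types were read beside these values. Of 44 measured markers of leukocytes (T, NK, B and plasma cells, macrophages, neutrophils, monocytes, dendritic cells and general leukocyte genes), 0 passed the authors' F test, and 7 were lower and 1 higher at an unadjusted p under 0.05. That is 18.2% of these markers with both directions pooled, against 16.0% of all genes (8.79% lower and 7.22% higher). By direction these markers were less evenly split than all genes, with 7 lower and 1 higher. The median of the 44 markers in the authors' deposited table was -0.01 log2 units, with a range from -1.14 to 0.51. The 5 measured neutrophil and monocyte markers had a median of -0.40, with 4 negative and 2 lower at an unadjusted p under 0.05. Medians of the other leukocyte lists ran from -0.12 to 0.12. Of 6 B and plasma cell markers 3 were negative and 3 positive, and JCHAIN (-0.35) and MZB1 (-0.50) were lower at that threshold. CSF3R and MMP9 were the 2 marker symbols with no row. PTPRC (CD45), the defining leukocyte gene, had 0.04 and CD3E of T cells had 0.08 in the authors' deposited table. PTPRC was the only positive value of the 6 general leukocyte genes, and the other 5 were negative. CD53 of that list had -0.39, with the smallest p of the leukocyte markers (authors' F test, unadjusted p 0.00282, adjusted p 0.102). Of all 44 leukocyte markers 23 were negative and 21 positive. SIGLEC1, which is both a macrophage marker and interferon-induced, had 0.18 (unadjusted p 0.557) in the authors' deposited table. S100A12 of neutrophils had the lowest value of the leukocyte markers, -1.14 (adjusted p 0.260), in the authors' deposited table. Markers of bile duct cells had a median of -0.80 over 7 genes, all 7 negative, with 0 passing and 5 (71.4%) lower at an unadjusted p under 0.05 in the authors' deposited table. Hepatocyte markers had a median of 0.26 over 8 genes, with 0 passing and 3 (37.5%) higher at an unadjusted p under 0.05 in the authors' deposited table. Endothelial markers had a median of 0.12 over 7 genes, with 0 passing and 0 in either direction at an unadjusted p under 0.05 in the authors' deposited table. Marker levels within each genotype are not analysed here, and the part of these cell types in the effector values was not tested.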

How the data were processed

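Liver RNA (RNeasy Plus Universal kit) went into TruSeq stranded mRNA or SMARTer total RNA libraries, per the labels' protocols. Per the submitters' processing notes the build was ARS-UCD1.2, and edgeR, HISAT2 2.1.0, Subread and featureCounts are named without role or order. Gene coordinates and the gene length, which is another deposited value, come from the annotation columns of the SMARTer count table, made with featureCounts 1.6.2 and Ensembl release 100 models, per the file headers. The log2 fold change, average log2 CPM, F score, p-value and adjusted p-value of each gene are the authors' deposited values. Model terms and low-value filters: not given in the sources used here.

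No sample label matches any of the 70 per-library columns in the 4 tables. None was used, so sample depth, the sires and S2 against S1 are not analysed here, and the planned quasi-likelihood fit was not possible. Precision is known from the authors' F and p-value only. Repeat rows (85 of 14246) were merged. The SE is the size of the log2 fold change divided by the square root of F, an approximation. The 95% intervals use the 18.7 denominator degrees of freedom that F and p imply, the same in all 46 effectors. Levels per length are the average log2 CPM minus the log2 of the length in kilobases. These steps were tested on simulated data. The tools were pandas 2.3.3, scipy 1.17.1, numpy 2.4.6 and matplotlib 3.10.9 in Python 3.11.15.

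Members and lists were chosen with earlier results of these data known. Full statistics were given for effectors that passed, the 2 with the smallest p per role, and those with an unadjusted p of 0.05 or more. Planned promoter and protein comparisons were not made, as no sequences were used here. The labels number samples within groups without naming animals. The p-values set the difference between groups against the spread between these samples, as the authors' model estimated it.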

Additional observations from a re-analysis of the deposited data

How the results depend on the processing

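The count of 5 effectors that fell became 6 with a Benjamini-Hochberg adjustment over the genes of the table, and 27 at an adjusted p of 0.10. Outside families taken as near copies it was 2 (ISG20 and ADAR). The families left out were OAS1, IFIT, MX, GBP, IFITM, and HERC5 with HERC6, so 30 genes remained. Sequences within these families were not compared, so whether each of them shares reads is not known here. A minimum level of 0 log2 CPM left out no effector, so its count of 5 is the same by construction. The median log2 fold change of -0.96 was -0.81 outside those families and -0.95 when centred on the median of all genes. Adding the 2 genes listed under other symbols, an alternative chosen after seeing the data, gave 5 genes that fell and a median of -0.96. At an unadjusted p under 0.01, 35 effectors were lower, against 3.82% of all genes. No paired analysis was possible because no sample label names the library columns. These columns were not used, so no library was left out, and whether 1 library carries the values was not tested. Promoter motifs were not run.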
